A study of Mus musculus with 16 samples.

Results

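The late step of Pax7 action in AtT-20 cells was read as the change between 24 h and 96 h of ER-Pax7 activation. AtT-20 is a mouse corticotrope tumour line that produces pro-opiomelanocortin (Pomc), and ER-Pax7 is Pax7 joined to the part of the oestrogen receptor that 4-hydroxytamoxifen activates. All genes of the ER-Pax7 table were followed over the 3 libraries at 24 h and the 3 libraries at 96 h, which are 6 of the 16 libraries of the study. Of 24063 genes in the table, 15188 reached 1 scaled exon read in at least 3 of the 12 ER-Pax7 libraries and were tested.

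All ER-Pax7 libraries come from the same kind of cell, AtT-20 at passage 10-20 carrying the fusion, sampled after 0, 12, 24 and 96 h of 4-hydroxytamoxifen with 3 libraries at each time. The 0 h and 12 h libraries are used here for what had happened before 24 h. The other 4 libraries are AtT-20 cells that carry 3x flag-Neo (2 libraries) or 3x flag-Pax7 (2 libraries), without 4-hydroxytamoxifen. No library of cells kept for 96 h without the compound is among those analysed, so time in culture and the length of ER-Pax7 activation cannot be told apart. Cells without the fusion that received the compound are also absent, so effects of 4-hydroxytamoxifen itself cannot be told apart either. Whether the cells are 1 clone is not given in the sources used here. Nor do the labels say that the replicates were grown apart, and p-values then rest on a spread among libraries that may be technical only.

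Pax7 is a pioneer transcription factor of the intermediate pituitary, able to open closed chromatin. It directs Pomc-producing cells towards the melanotrope, which cuts the Pomc protein into melanocyte-stimulating hormone, whereas the corticotrope of the anterior lobe cuts it into adrenocorticotropic hormone. The convertase PC1/3, encoded by Pcsk1, makes adrenocorticotropic hormone, and PC2, encoded by Pcsk2, cuts it further in the melanotrope. Cells that secrete much protein also rely on the chaperones of the endoplasmic reticulum, which the unfolded protein response raises, and on sterol and fatty acid synthesis for membrane.

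Recovered read mates numbered between 62.4 M and 68.7 M in the 24 h libraries and between 68.0 M and 80.7 M in those of 96 h. Values are given as scaled exon reads, meaning reads over the exons of a gene scaled so that every library has the same total and divided by a normalisation factor (TMM). They are not corrected for gene length, so levels are compared within a gene only. The 45S ribosomal RNA gene Rn45s took 0.753% to 0.942% of the total at 24 h and 0.843% to 1.26% at 96 h. The Pax7 transcript, which includes the fusion, stood at 1853, 1777 and 1648 scaled exon reads at 24 h and at 1911, 1905 and 1864 at 96 h. This difference of 0.11 on the log2 scale (95% interval 0.02 to 0.19) did not pass the test (limma, adjusted p = 0.0835), but did without 24 h replicate 1 (0.15; limma, adjusted p = 0.0256). Esr1 differed by 0.05 (limma, adjusted p = 0.582). Of 13 hormone-lineage markers of other pituitary cells, 9 lay below the filter, and Prl, Tshb, Fshb, Gnrhr, Foxl2 and Trhr were at 0 in all 12 libraries. None of the other 4 was called between 24 h and 96 h by limma, edgeR or DESeq2, with 1 lower at an unadjusted limma p under 0.05. Immune markers summed to 57.1 to 66.8 scaled exon reads at 24 h and 56.4 to 56.7 at 96 h, and fibroblast and endothelial markers to 25.5 to 29.3 and 22.2 to 26.1. Of these 8 and 9 markers, 4 and 3 were tested and none was called by the 3 tools; at an unadjusted limma p under 0.05 the numbers were 0 and 1. The T cell marker Cd3e was at 0 in every library.

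Between 24 h and 96 h, 936 genes rose and 993 fell (limma, adjusted p under 0.05), which is 6.16% and 6.54% of the 15188 tested. Most changes were small. The median log2 change was 0.21 among the genes that rose and -0.25 among those that fell, and 13 genes rose and 5 fell by at least 2-fold. At 1.5-fold the numbers were 94 and 68. Over all tested genes the median change was 0.00, and 30.7% of them had 24 h and 96 h libraries that did not overlap. Leaving out 1 library at a time left 603 to 834 genes higher and 658 to 894 lower, with 612 higher without 96 h replicate 1, 603 without 96 h replicate 2 and 658 lower without 24 h replicate 2. Of the genes called, 407 higher and 472 lower were called in all 6 of these fits. In the authors' deposited table, 743 genes pass a false discovery rate of 0.05 for the same contrast, 379 higher and 364 lower, and 729 of them were called here in the same direction. At 12 h against 0 h, 2.79% of the tested genes were called higher and 3.71% lower. The 12 h counts of gene lists below are to be read beside these shares.

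**Figure D1:**
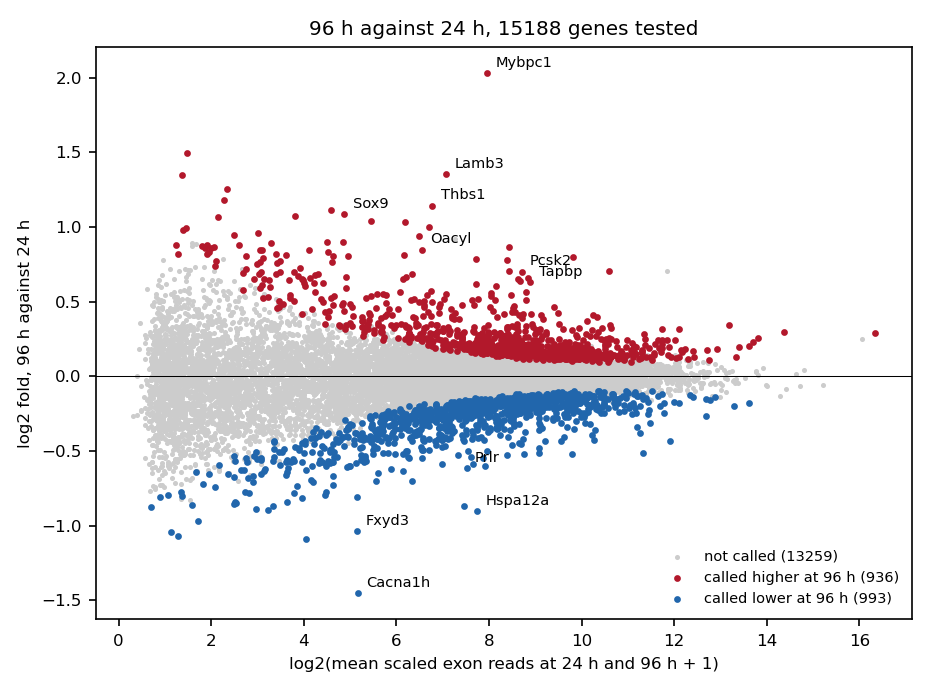
Log2 fold at 96 h against 24 h (vertical axis) by the log2 of the mean scaled exon reads at both times plus 1 (horizontal axis) for the 15188 genes tested, with genes called higher in red (936), called lower in blue (993) and not called in grey. Most called genes lie near 0 at high read levels, and Mybpc1 (2.03) and Cacna1h (-1.45) lie far from the rest at the top and the bottom.

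The melanotrope convertase and a melanotrope acyltransferase were higher at 96 h than at 24 h. Pcsk2 (chromosome 2, 143546133-143816282 in build mm10, as for all positions here) had 318, 313 and 323 scaled exon reads at 24 h and 542, 521 and 489 at 96 h. Every 96 h library was above every 24 h library, and the log2 change was 0.70 ± 0.045 (SE; limma, adjusted p = 2.86e-09). Oacyl, an acyltransferase gene used as a melanotrope marker, went from 67.8, 67.4 and 62.3 to 124, 116 and 118, again without overlap (log2 0.85 ± 0.142; limma, adjusted p = 4.03e-04). Before activation the mean of Oacyl was 1.59. Of the other melanotrope markers, Drd2, the dopamine receptor of the melanotrope, was at 0 in 11 of 12 libraries and never above 0.11. Megf11 differed by 0.12 (95% interval 0.03 to 0.21; limma, adjusted p = 0.0844) and Esm1, at a mean of 1.42 and 2.89 scaled exon reads, by 0.73 (0.17 to 1.29; limma, adjusted p = 0.0792), so neither passed. Thus 2 of 4 tested melanotrope markers rose late (50.0%, against 6.16% of all tested genes). In these bulk samples a change in the share of cells of a kind and a change in RNA per cell cannot be told apart.

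Corticotrope genes did not fall as a group. Of 8 tested markers, 3 rose, 2 fell and 3 did not pass. Rises were 37.5% and falls 25.0%, both above the 6.16% and 6.54% of all tested genes. Pomc (chromosome 12, 3954945-3960643) had 74601, 73058 and 75825 scaled exon reads at 24 h and 95246, 89942 and 88325 at 96 h (log2 0.29 ± 0.053; limma, adjusted p = 9.15e-04). Its means at 0 h and 12 h were 93147 and 82594, so the 24 h libraries are the low point of the course. Tbx19, the T-box factor that drives Pomc in both Pomc lineages, rose by 0.24 (limma, adjusted p = 2.61e-04). Pcsk1 rose from 8136, 8219 and 8164 to 10490.0, 10308 and 10281 (0.34 ± 0.033; limma, adjusted p = 7.76e-07). The glucocorticoid receptor gene Nr3c1, through which corticosteroids restrain the corticotrope, fell by 0.18 on the log2 scale and the receptor gene Lifr of leukaemia inhibitory factor by 0.18. The receptor of corticotropin-releasing hormone, Crhr1, was low throughout, with means of 9.93 and 13.1 scaled exon reads at 24 h and 96 h (0.37; limma, adjusted p = 0.0936). Neurod1 (0.08) and Pitx1 (0.15), transcription factors of the corticotrope, did not pass either.

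The enzymes that mature peptide hormones were higher where they changed. Of 10 tested genes, among which Pcsk1 and Pcsk2 are counted, 6 rose and none fell (60.0% against 6.16% of all tested genes), with a median log2 change of 0.16. At 12 h against 0 h, 1 of the 10 had risen and 1 had fallen (2 with the replicate number as a covariate). The amidating enzyme Pam went from 3375, 3380.3 and 3398 scaled exon reads to 3979, 4092 and 3957 (0.24; limma, adjusted p = 3.53e-05). Summed over the 10 genes, the reads were 27043, 27209 and 28074 at 24 h and 32040.0, 31953 and 31994 at 96 h, above the 0 h range of 28305 to 28709, and Pcsk1 is part of this sum. Ctsl, a cathepsin active in secretory granules, rose by 0.19 (limma, adjusted p = 0.00173).

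Granule cargo and membrane genes gave a mixed picture, with 3 of 11 higher and none lower by limma (1 lower without 24 h replicate 3, and 2 lower by DESeq2). Vgf, a granin-like neuropeptide precursor, had 405, 449.6 and 437 scaled exon reads at 24 h and 570.5, 545 and 527 at 96 h (0.35; limma, adjusted p = 3.2e-05), near its 0 h mean of 544. Ptprn, a membrane protein of the granule, rose by 0.32 to a mean of 860.0, against 858 at 0 h. Of 18 genes for granule docking and exocytosis, 3 rose (1 without 96 h replicate 3) and 3 fell. Rises made up 27.3% of the cargo and membrane genes and 16.7% of the docking genes, against 6.16% of all tested genes. Falls were 16.7% of the docking genes, against 6.54%. The synaptotagmin-like effectors of Rab27 took opposite courses: Sytl2 went from 322, 331 and 316 to 452, 423 and 429 (0.43), while Sytl4 went from 1024, 1017 and 1051 to 805, 814 and 797 (-0.35). Both had already moved in those directions at 12 h (0.55 and -0.34).

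**Figure D2:**
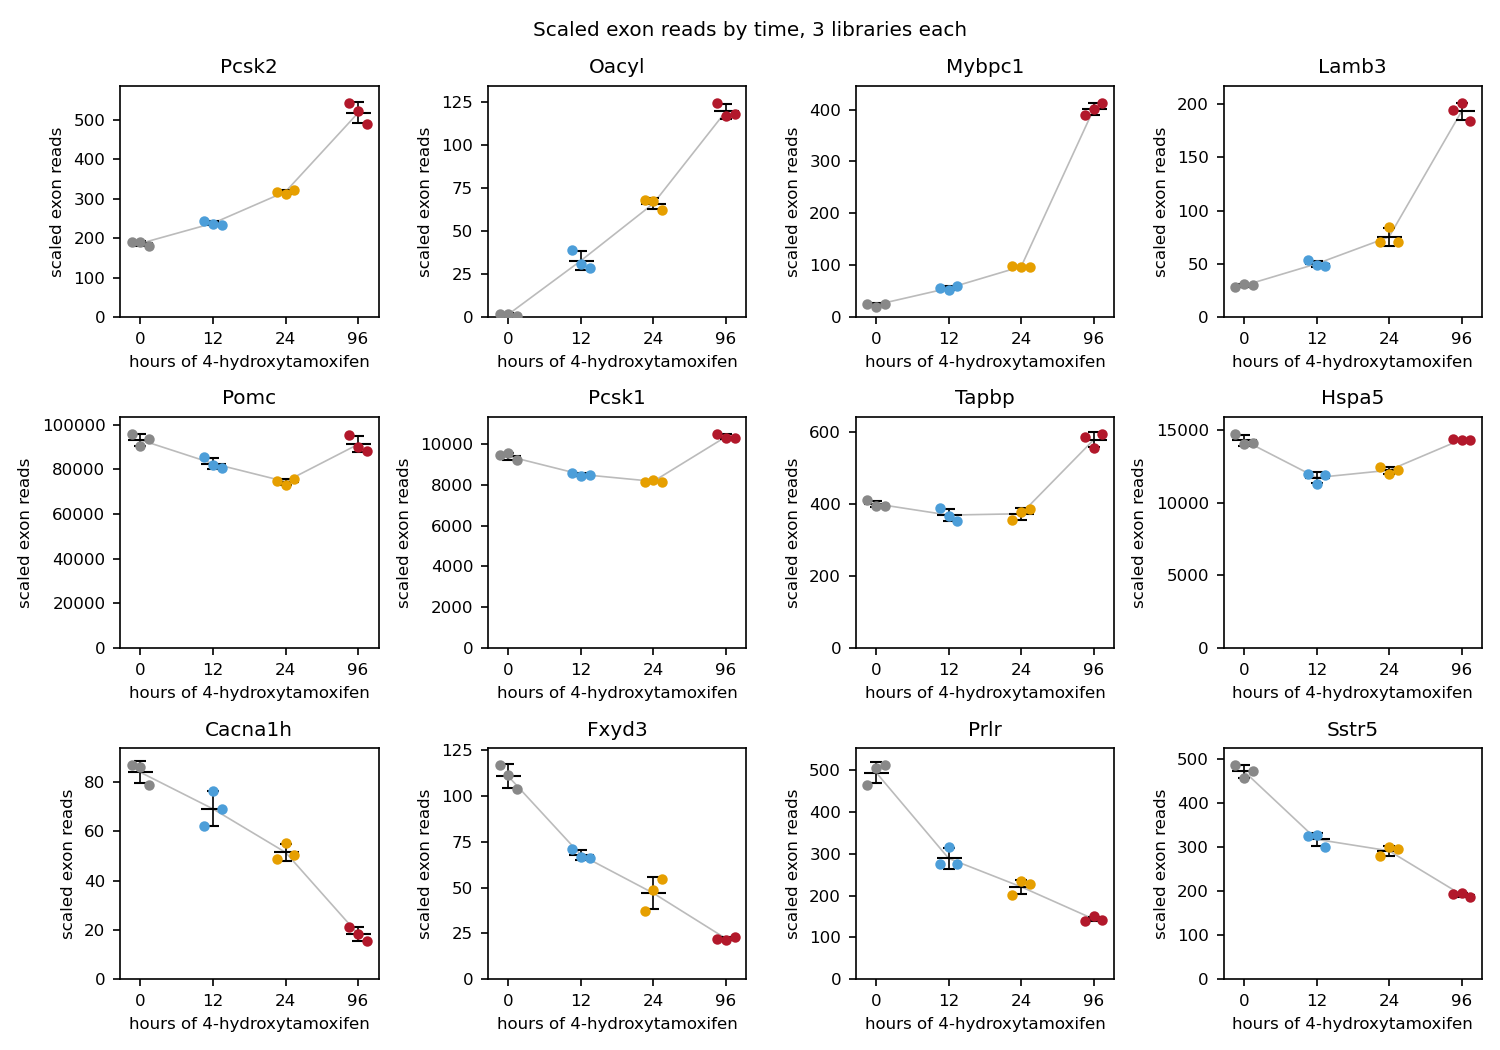
Scaled exon reads (vertical axis, from 0) of 12 named genes against hours of 4-hydroxytamoxifen (0, 12, 24 and 96, evenly spaced on the horizontal axis), with points for the 3 libraries at each time, bars for the mean and its SD, and a line through the means. Pcsk2, Oacyl, Mybpc1 and Lamb3 climb at every step, Pomc, Pcsk1 and Hspa5 dip at 12 h and 24 h and are higher again at 96 h, Tapbp is higher at 96 h alone, and Cacna1h, Fxyd3, Prlr and Sstr5 decline to their lowest level at 96 h.

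The largest late rise among genes with at least 50 scaled reads on average belonged to Mybpc1 (chromosome 10, 88518279-88605152), which encodes the slow form of myosin-binding protein C of striated muscle. Its libraries gave 97.8, 97.1 and 97.2 scaled exon reads at 24 h and 390.0, 401 and 413 at 96 h. This is 4.09-fold (log2 2.03 ± 0.082; limma, adjusted p = 2.18e-12), after a first rise of 1.21 at 12 h. Other muscle genes moved less. Of 20 tested, Mybpc1 included, 4 rose and 1 fell (20% and 5%, against 6.16% and 6.54% of all tested genes). The fall was lost without 24 h replicate 2, 96 h replicate 1 or 96 h replicate 3. The rises include Apobec2 (0.54), a cytidine deaminase family member of muscle, and Lmcd1 (0.45), a LIM-domain cofactor. The summed reads of the muscle list were 819 to 881 at 24 h and 1241 to 1251 at 96 h, and Mybpc1 makes up most of that difference.

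Several of the strongest rises encode basement membrane and matrix proteins. Lamb3, the laminin beta 3 chain (chromosome 1, 193301994-193343878), went from 70.2, 84.6 and 70.8 scaled exon reads to 194, 200.8 and 184 (log2 1.35 ± 0.080; limma, adjusted p = 8.53e-10). Thbs1, thrombospondin 1, went from 62.8, 76.2 and 63.3 to 168, 146 and 136 (1.14; limma, adjusted p = 5.87e-07). Lama4, the laminin alpha 4 chain, rose by 0.94. Cilp, a matrix protein of cartilage that had already risen by 2.07 at 12 h, rose by a further 0.71, to 443, 418 and 423. Over the matrix list of 25 tested genes, 7 rose and 4 fell (2 without 24 h replicate 2 or 96 h replicate 3), so the direction was not shared. Itga6, the integrin alpha 6 chain that binds laminin, fell from 1075, 989 and 1064 to 838, 850.1 and 850.1 (-0.30), while Itgb5, the integrin beta 5 chain, rose by 0.53.

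Other genes among the 15 highest rises serve signalling, the cytoskeleton or secretion. Kif21b, a kinesin, had 46.6 to 47.4 scaled exon reads at 24 h and 89.3 to 102 at 96 h (1.03), and was not called at 12 h. Gas1 and Boc encode cell-surface co-receptors for hedgehog ligands; they rose by 1.00 and 0.81. Boc had not been called at 12 h, and Gas1 only with the replicate number as a covariate (limma, adjusted p = 0.0474, against 0.072 without it). Rgs4, which shortens G-protein signals, climbed from 622, 676 and 671 to 1148, 1124 and 1151 (0.80; limma, adjusted p = 8.42e-10). Rassf10 (0.87), St6gal1 (0.78), a sialyltransferase of the Golgi, and Ahsg (0.70), the secreted glycoprotein fetuin-A, rose as well. The progenitor factor gene Sox9 lay below the level set for this ranking but went from 17.1 to 18.2 scaled exon reads at 24 h to 37.3 to 40.3 at 96 h (1.09; limma, adjusted p = 1.9e-06). It was the 1 progenitor gene of 8 tested that rose (12.5%), while 3 fell (37.5%), against 6.16% and 6.54% of all tested genes. The falls include Six6, by 0.30, and Hes1, a Notch effector, by 0.38 on the log2 scale.

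The strongest late fall among genes with at least 50 scaled reads on average was in Cacna1h (chromosome 17, 25374287-25433783), which encodes the pore of a T-type calcium channel. It had 48.8, 55.2 and 50.4 scaled exon reads at 24 h and 21.1, 18.3 and 15.5 at 96 h, with a log2 change of -1.45 ± 0.102 (limma, adjusted p = 1.05e-08). Its mean at 0 h was 84.0, and the 12 h change (-0.28) was not called. Other parts of voltage-gated calcium channels fell too: the beta 3 subunit Cacnb3 (-0.34), the auxiliary subunit Cacna2d2 (-0.39) and the P/Q-type pore Cacna1a (-0.26). These are the 4 called members of 20 tested calcium and sodium channel genes (20.0% lower, against 6.54% of all tested genes). The 4 were also called in each fit that left out 1 library.

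Hormone receptors, growth factor binding proteins and transmitter enzymes were among the genes with further falls. The prolactin receptor gene Prlr had 202, 235 and 227 scaled exon reads at 24 h and 139.5, 150.3 and 142 at 96 h (-0.62; limma, adjusted p = 1.37e-06), after a mean of 495 at 0 h. The somatostatin receptor gene Sstr5, an inhibitory receptor of corticotropes, went from 279, 299 and 296 to 193, 195 and 186 (-0.60; limma, adjusted p = 3.09e-08), from 472 at 0 h. The rule that named both genes required 24 h and 96 h libraries without overlap, which 30.7% of all tested genes had. The binding proteins of insulin-like growth factors Igfbp4 (-0.53) and Igfbp5 (-0.52) fell together. Ddc, the decarboxylase that makes dopamine and serotonin, went from 2961, 3027 and 3047 to 2200.4, 2124 and 1997 (-0.52; limma, adjusted p = 5.66e-08). Mgll, which breaks down the endocannabinoid 2-arachidonoylglycerol, fell by 0.79 on the log2 scale, having fallen by 1.37 at 12 h.

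Fxyd3, a regulator of the sodium pump, went from 37.5, 48.5 and 54.9 scaled exon reads to 21.7, 21.6 and 23.1 (-1.03; limma, adjusted p = 9.92e-07), and Sln, a small inhibitor of the calcium pump, fell by 0.81 on the log2 scale. Arsg, a lysosomal sulfatase, went from 242, 215 and 223 to 125, 126 and 119 (-0.87; limma, adjusted p = 2.71e-09). Hspa12a, of the heat shock 70 family, had 198, 321 and 323 at 24 h and 153, 159 and 128 at 96 h (-0.90; limma, adjusted p = 4.52e-04). The 24 h replicate 1 library of Hspa12a stood nearer to the 96 h libraries than to the other 24 h libraries. The Notch modifier Lfng fell by 0.48 from means of 628 to 450.4, and Hr, Plxnd1 and Fzd7 fell by 0.70, 0.63 and 0.62 on the log2 scale. Lfng and Hes1 are the 2 called members of 16 tested Notch genes, and both were lower (12.5% against 6.54% of all tested genes).

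Neuronal adhesion and axon guidance genes were lower where they changed. Of 22 tested, 9 fell (40.9% against 6.54% of all tested genes) and none rose. The median log2 change was -0.13 against 0.00 for all tested genes. Epha5, an ephrin receptor, went from 323, 329 and 335 scaled exon reads to 256, 260.1 and 258 (-0.35; limma, adjusted p = 9.54e-05). Nrp1, a semaphorin co-receptor, fell by 0.22 and Nrxn3, a neurexin, by 0.29 on the log2 scale. At 12 h this list had 2 members higher and 2 lower. Summed reads were 7802 to 8114 at 24 h and 7172 to 7289 at 96 h, beside 7202 to 7495 at 0 h. The count rests on single libraries: it was 4 without 24 h replicate 2 or 96 h replicate 2, 5 without 96 h replicate 1 or replicate 3, and 7 without 24 h replicate 1, where 1 member also rose, or 24 h replicate 3.

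Chaperones of the endoplasmic reticulum were higher again at 96 h after an early dip. Of 21 genes of the unfolded protein response, 12 rose between 24 h and 96 h and none fell (57.1% against 6.16% of all tested genes), with a median log2 change of 0.14. At 12 h against 0 h none of the 21 had risen and 14 had fallen (median -0.17), beside 2.79% and 3.71% of all tested genes. Hspa5, the chaperone BiP that guards the whole response, had 12452, 11985 and 12276 scaled exon reads at 24 h and 14370.0, 14349 and 14345 at 96 h (0.23 ± 0.038; limma, adjusted p = 3.09e-04), close to its 0 h mean of 14296. Ero1lb, an oxidase that forms disulfide bonds in secretory cells, rose from 419.6, 451 and 440.1 to 545, 539 and 563 (0.33), from a 0 h mean of 411. Hyou1 (0.22), a large chaperone, and Pdia6 (0.20), a disulfide isomerase, rose as well. Summed over the list, reads ran from 62881 to 63330.0 at 0 h, 54420.0 to 56517 at 12 h, 54384 to 56175 at 24 h and 62096 to 63124 at 96 h. The count of rising members was 9 to 12 when 1 library was left out.

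Promoters of these chaperone genes carry a known word, the ER stress element, to which the ATF6 and XBP1 factors bind together with NF-Y. In RefSeq promoters of build GRCm38.p6, from 250 bases before to 50 after the start, the word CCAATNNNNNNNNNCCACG was searched on both strands, its first part being the CCAAT box itself. One promoter was taken per tested gene, the one nearest to the deposited start and within 500 bases of it, which gave 10694 promoters. The word was present in 9 of the 18 unfolded protein response genes with a promoter and in 16 of all 10694 (0.150%). Among the list's genes that rose late and had a promoter it was present in 6 of 10. These 6 are printed because they show the element in genes that rose; capitals mark the word, with 30 bases on each side, read 5′ to 3′ on the gene's own strand. In Calr, Derl3 and the second copy of Hsp90b1 the capitals hold the reverse complement.
Hspa5, chr2:34771995-34772073, plus strand: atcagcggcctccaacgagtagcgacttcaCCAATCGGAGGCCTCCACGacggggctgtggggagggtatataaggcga
Pdia6, chr12:17266461-17266539, plus strand: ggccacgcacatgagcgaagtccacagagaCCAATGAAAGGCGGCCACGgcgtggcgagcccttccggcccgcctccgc
Canx, chr11:50325770-50325848, minus strand: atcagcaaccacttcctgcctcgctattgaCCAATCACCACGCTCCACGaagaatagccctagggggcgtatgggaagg
Hsp90b1 (copy farther from the start), chr10:86705608-86705686, minus strand: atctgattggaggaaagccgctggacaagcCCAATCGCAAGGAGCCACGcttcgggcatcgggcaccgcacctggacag
Hsp90b1 (copy nearer to the start), chr10:86705503-86705581, minus strand: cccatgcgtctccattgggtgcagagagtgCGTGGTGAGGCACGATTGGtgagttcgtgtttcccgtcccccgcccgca
Calr, chr8:84847045-84847123, minus strand: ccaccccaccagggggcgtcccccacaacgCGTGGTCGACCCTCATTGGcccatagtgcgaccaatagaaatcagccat
Derl3, chr10:75893212-75893290, plus strand: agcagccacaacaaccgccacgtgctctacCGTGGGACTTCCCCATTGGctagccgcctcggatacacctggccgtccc

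In Hspa5 the word lies 65 to 47 bases before the start, in Pdia6 98 to 80 and in Canx 145 to 127. Canx and Calr encode the lectin chaperones calnexin and calreticulin, Hsp90b1 the chaperone GRP94, and Derl3 a protein of the degradation channel; their late log2 changes were 0.18, 0.16, 0.19 and 0.34, and they were chosen for their promoters after their values were seen. The sterol regulatory element word TCACNCCAC, to which sterol-sensing SREBP factors bind, was searched in the same way. It was present in 1 of 17 cholesterol genes with a promoter, and in none of the 12 of them that rose, against 1.09% of all promoters. One promoter held both words. A match of letters is a description of these windows only.

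Sterol synthesis genes also dipped early and were higher at 96 h than at 24 h, although their summed reads stayed below the 0 h range. Of the 25 sterol genes, which serve cholesterol synthesis or uptake, 15 rose between 24 h and 96 h and none fell. The rises were 60.0%, against 6.16% of all tested genes, with a median log2 change of 0.21. At 12 h against 0 h, 16 of the 25 had fallen and 1 had risen (median -0.22). Of all tested genes, 3.71% had fallen and 2.79% had risen at 12 h. Lss, the enzyme that closes the sterol rings, had 851, 1059.9 and 1016 scaled exon reads at 24 h and 1374, 1235 and 1175 at 96 h (0.37; limma, adjusted p = 6.29e-04). Cyp51, the lanosterol demethylase, went from 2098, 2492 and 2521 to 2996, 2824 and 2801 (0.28). The late enzymes Sc5d (0.27) and Dhcr7 (0.32) rose too, and Dhcr7 had not been lower at 12 h (0.01). Reads summed over the list were 34694 to 36329 at 0 h, 28961 to 31061 at 12 h, 24160.0, 28761 and 28757 at 24 h, and 32537, 30776 and 30039 at 96 h. Thus 24 h replicate 1 was the lowest of its group and 96 h replicate 1 the highest. The count of rising members was 7 without 24 h replicate 1, 6 without 96 h replicate 1 and 10 without 96 h replicate 2, it was 8 without a filter on low values, and 6 members were called in every such fit.

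Fatty acid synthesis moved alongside. Of 15 genes, 9 rose (60.0% against 6.16% of all tested genes) and none fell. At 12 h 6 had fallen and none had risen, beside 3.71% and 2.79% of all tested genes. Thrsp, a lipogenic regulator, went from 372, 392 and 411 scaled exon reads to 502, 495 and 485 (0.34; limma, adjusted p = 4.29e-05). Scd2, a desaturase, went from 11620.0, 13913 and 13726 to 15836, 15316 and 15546 (0.25; limma, adjusted p = 0.0063). Here too 24 h replicate 1 was the lowest library, with a list sum of 31107 against 35791 and 34410.0. Without 24 h replicate 1 the count was 4, without 96 h replicate 1 it was 3, and without 96 h replicate 2 or without a filter on low values it was 5. The glycolysis and hypoxia list, with 1 of 25 genes lower, had 9 lower once 24 h replicate 1 was left out.

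**Figure D3:**
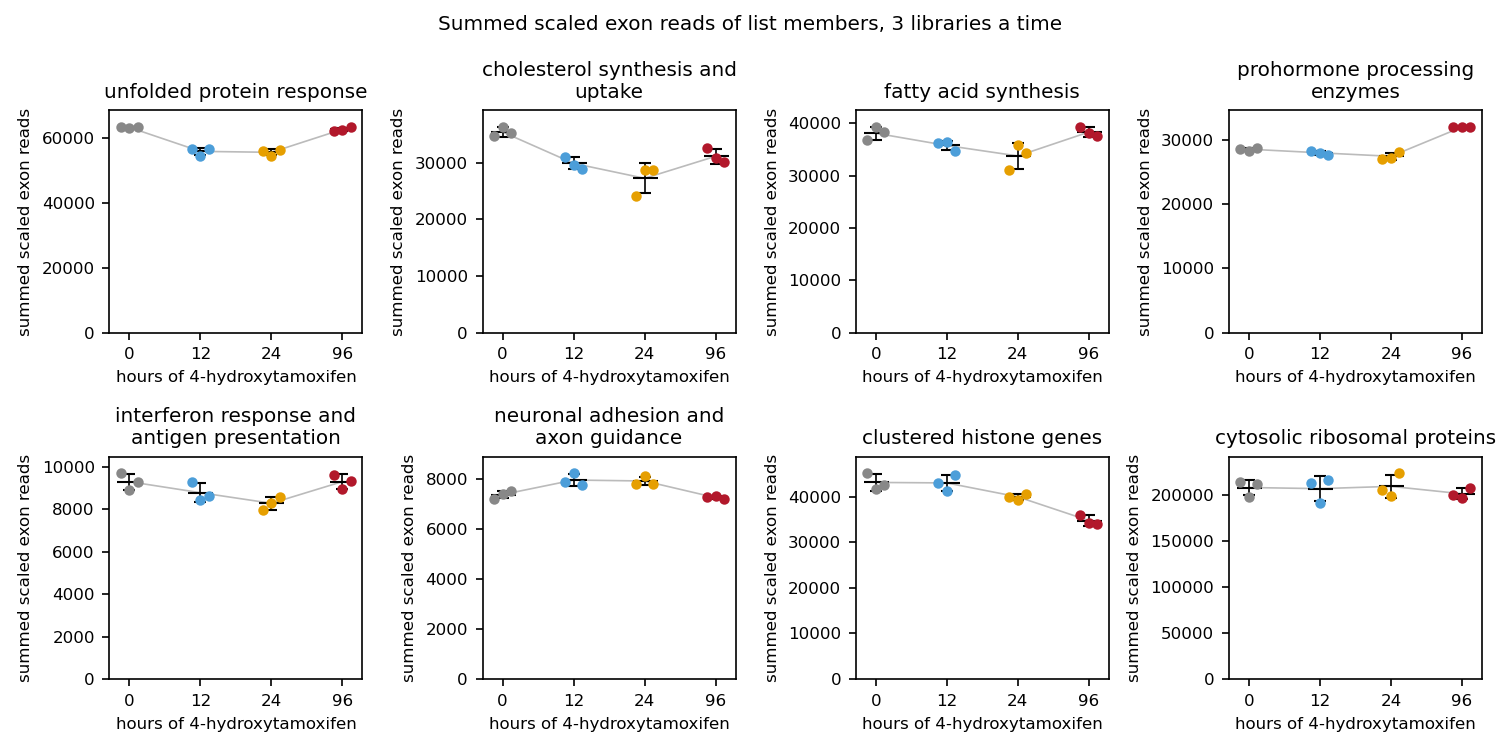
Summed scaled exon reads of the members of 8 gene lists (vertical axis, from 0) against hours of 4-hydroxytamoxifen, with points for the 3 libraries at each time and bars for the mean and its SD. Unfolded protein response, cholesterol and fatty acid genes dip at 12 h and 24 h and are higher at 96 h, prohormone processing enzymes reach their highest sum at 96 h, clustered histone genes reach their lowest sum at 96 h, and for ribosomal proteins the libraries of 24 h and 96 h overlap.

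Histone transcripts were lower on day 4. Of 48 tested histone genes of the replication-dependent clusters, 28 fell and none rose (58.3% against 6.54% of all genes; median log2 change -0.20), while at 12 h none had been called in either direction by limma or edgeR (1 higher and 1 lower at an unadjusted limma p under 0.05, and 1 called higher with the replicate number as a covariate). Hist1h1c, a linker histone gene, had 3102, 3218 and 3163 scaled exon reads at 24 h and 2694, 2531 and 2425 at 96 h (-0.31; limma, adjusted p = 2.59e-05). Hist2h2be, an H2B gene, went from 194, 207 and 202 to 139, 151 and 155 (-0.44; limma, adjusted p = 1.59e-05). Summed reads were 39319 to 40596 at 24 h and 33999 to 36054 at 96 h, without overlap. The count was 13 without 96 h replicate 2 or replicate 3, 18 without 24 h replicate 3, 19 without 24 h replicate 1 and 16 without a filter on low values. Near-identical histone copies may share reads, so single members are uncertain.

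Other cell cycle genes did not follow the histones. Of 35 DNA replication genes, 6 rose (17.1% against 6.16% of all genes) and none fell. Mcm10 (0.20), which loads the replication machinery, and Rrm2 (0.19), the nucleotide reductase subunit, were among the rises. Of 34 mitosis and spindle genes, 3 fell and none rose, a share of 8.82% that is near the 6.54% of all genes; they include Ccnb2 (-0.21), a mitotic cyclin, and Kif23 (-0.18), a kinesin of cell division. The list of CDK inhibitors and D-type cyclins also holds the retinoblastoma-like gene Rbl2. Of its 12 tested genes, 2 rose and 1 fell (16.7% and 8.33%, against 6.16% and 6.54% of all genes). Cdkn1a (0.21) and Rbl2 (0.16) rose. Cdkn1a was not called without 24 h replicate 3 or 96 h replicate 3, and Rbl2 was called in no fit that left out 1 library. The inhibitor gene Cdkn1c fell by 0.28 on the log2 scale. Targets of the p53 factor were higher: 8 of 14 rose (57.1% against 6.16% of all genes) and none fell, with 5 without 24 h replicate 3. Eda2r, a death-domain receptor, went from 193, 164 and 175 scaled exon reads to 238, 256 and 269.9 (0.52; limma, adjusted p = 1.49e-05), and Ccng1, Trp53inp1 and Sesn1 rose by 0.24, 0.25 and 0.26. Of 79 ribosomal protein genes 7 fell, a share of 8.86% that is near the 6.54% of all genes. The count was 2 without 24 h replicate 1 or 96 h replicate 1, and 1 without 24 h replicate 3 or 96 h replicate 2. It was 4 without a filter on low values. Of 43 oxidative phosphorylation genes none was called by limma or edgeR, against 1 higher by DESeq2 and 2 by limma on the 24 h and 96 h libraries alone, and 3 were higher and 1 lower at an unadjusted limma p under 0.05. Without 24 h replicate 1, limma called 1 of the 43 higher.

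Interferon-response and antigen-presentation genes rose between 24 h and 96 h. Of 26 tested, 11 were higher and 1 was lower (42.3% and 3.85%, against 6.16% and 6.54% of all tested genes). The median log2 change was 0.24. The single fall was called with all libraries and without 96 h replicate 1, and in no other fit with 1 library left out. At 12 h none of the 26 had been higher (1 with the replicate number as a covariate) and 1 lower. Summed over the list, reads ran from 8932 to 9697 at 0 h and 8426 to 9284 at 12 h. The sums were 7986 to 8580 at 24 h and 8938 to 9631 at 96 h, back within the 0 h range. Tapbp, tapasin, which loads peptides onto class I molecules (chromosome 17, 33919478-33929290), had 355, 376 and 387 scaled exon reads at 24 h and 586, 554 and 593 at 96 h (0.63 ± 0.045; limma, adjusted p = 1.05e-08). Its mean at 0 h was 399.8, so the 96 h libraries stand alone. B2m, the light chain of class I molecules, went from 311, 345 and 355 to 424, 411 and 432 (0.33), Bst2, tetherin, rose by 0.54 and Irf7, an interferon regulatory factor, by 0.33. The summed level of the 8 immune cell markers, 56.4 to 56.7 at 96 h, was below the 24 h range of 57.1 to 66.8, and none of the 4 tested was called. The share of Rn45s, given above, was highest in 96 h replicate 3 among these 6 libraries; its part in the result was not tested.

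Lysosome and proton pump genes were higher where they changed, with 7 of 28 higher and none lower (25.0% against 6.16% of all tested genes). Among them was Atp6ap2 (0.25), an accessory subunit of the pump that had fallen by 0.23 at 12 h. Cyclic AMP genes had 5 of 20 higher and 3 lower (5 lower by DESeq2, with library totals or with a filter of 10 scaled reads), among them Pde4b (0.39), a cyclic AMP phosphodiesterase, and Crem (0.42) higher and Creb1 (-0.20) and Adcy1 (-0.20) lower. Of 7 tested oestrogen-response genes, 3 rose and 2 fell; Greb1, an oestrogen receptor cofactor, rose by 0.77, the chemokine gene Cxcl12 by 0.28, and Igfbp4 was among the falls. Glucocorticoid targets had 4 of 12 higher, which became 2 without 24 h replicate 1, 96 h replicate 1 or 96 h replicate 2, and 2 lower; the NF-kappa-B inhibitor Nfkbia was at 0.47. Imprinted genes had 4 of 18 higher and 3 lower (22.2% and 16.7%), with Impact at 0.46 and Mest at 0.32. Of 41 chromatin regulators 4 fell (9.76%, against 6.54% of all tested genes) and none rose. The falls numbered 2 without 24 h replicate 1, and 1 without 24 h replicate 2 or any single 96 h library. They numbered 2 without a filter on low values and 7 on the 24 h and 96 h libraries alone. Epithelial genes had 2 of 22 higher (1 without 24 h replicate 3) and 3 lower, with the keratin gene Krt7 at -0.25. These epithelial shares were 9.09% and 13.6%, against 6.16% and 6.54% of all tested genes. The endocannabinoid and monoamine enzymes, to which Ddc and Mgll belong, had none of 13 higher and 3 lower (23.1%). Shares higher and lower were 25% and 15% for cyclic AMP genes and 42.9% and 28.6% for oestrogen-response genes. For glucocorticoid targets they were 33.3% and 16.7%.

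**Figure D4:**
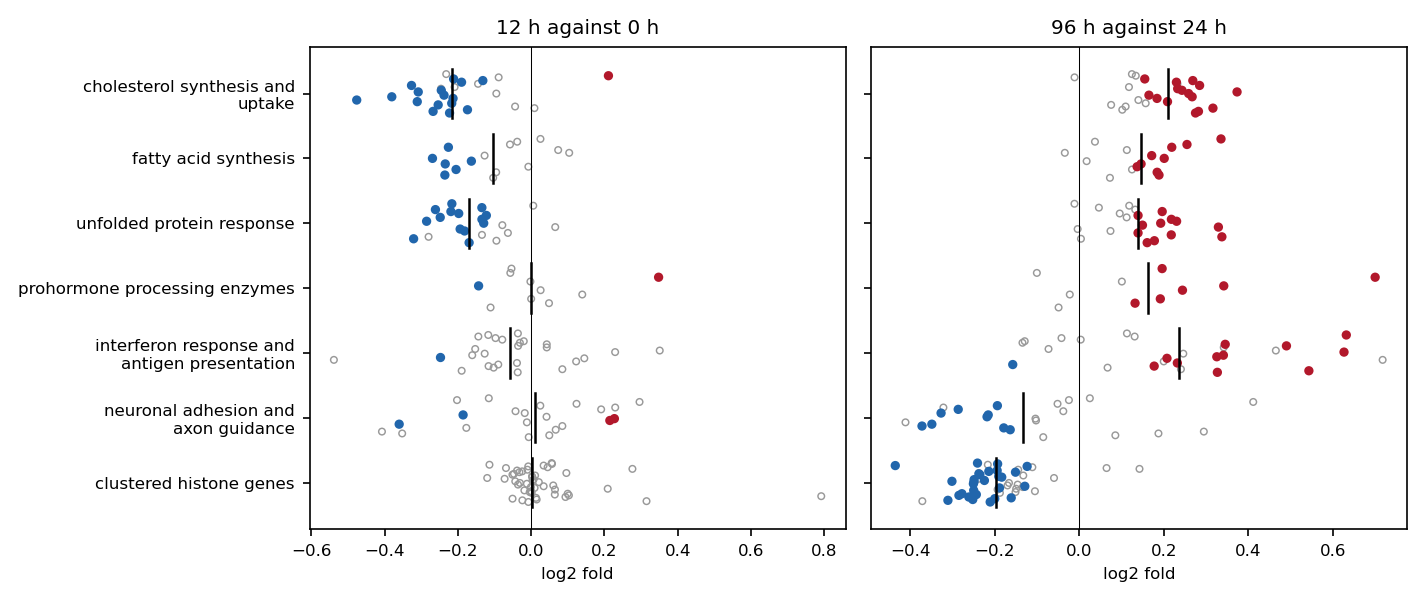
Log2 folds of the tested members of 7 gene lists at 12 h against 0 h (left) and at 96 h against 24 h (right), each point a gene, filled red or blue where called higher or lower (limma, adjusted p under 0.05) and open where not called, with a black bar at the list median. Cholesterol, fatty acid and unfolded protein response genes lie mostly left of 0 in the early comparison and right of 0 in the late one, and histone genes are centred on 0 early and lie left of it late.

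To ask whether early changes went further, stood still or turned back, the genes called at 12 h against 0 h were followed in the 24 h and 96 h libraries, which that comparison did not use, although all libraries share an estimate of the spread. At 12 h, 423 genes were higher and 563 lower, 2.79% and 3.71% of those tested (528 and 743 with the replicate number as a covariate). Of the 423 early rises, 109 rose further late (25.8%) and 29 fell (6.86%), so 285 were not called, and the median late change was 0.06. Of the 563 early falls, 159 fell further (28.2%) and 84 turned upwards (14.9%), with 320 not called and a median of -0.05. Over all tested genes the late shares were 6.16% higher and 6.54% lower. Further moves and upward turns lay above these, and the 6.86% of early rises that fell lay near them. Genes called at 12 h passed a test on the same estimate of the spread, which can by itself raise their share of late calls. All tested genes are therefore not a like background, and the part of this selection was not tested.

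Early rises that stopped by 24 h include Tfeb, a regulator of lysosome genes. It had a mean of 50.4 scaled exon reads at 0 h and 133 at 12 h, and then 133, 131 and 135 at 24 h and 140.4, 142 and 131 at 96 h, so that the late libraries overlapped (0.05, 95% interval -0.09 to 0.19; limma, adjusted p = 0.672). Gas6, a ligand of TAM receptors, had risen by 1.12 at 12 h and differed by 0.06 late (-0.11 to 0.23; limma, adjusted p = 0.712). Mest, by contrast, rose by 1.05 at 12 h and went on from 1422, 1430.3 and 1365 to 1700.4, 1805 and 1773.

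Early rises that fell late include the transcription factor gene Sox4 and the neuronal tubulin gene Tubb3. Sox4 had means of 425 at 0 h and 542 at 12 h, then 507, 498 and 464 at 24 h and 385, 356 and 355 at 96 h (-0.42; limma, adjusted p = 6.87e-06), below the 0 h mean. Tubb3 went from 2858, 2741 and 2681 to 2154, 2144 and 2078 (-0.38), also below its 0 h mean of 2582. The protease gene Tmprss4 was back at its starting level, with 0 h and 96 h means of 219.7 and 220.2 (late change -0.38; limma, adjusted p = 1.1e-04). Prr15l, Frs3 and Itga6 also fell late, with changes of -0.43, -0.36 and -0.30. Prr15l and Itga6 ended below their 0 h means, at 506 against 639 and at 846 against 942. Frs3 had means of 60.8 at 0 h and 65.7 at 96 h.

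Early falls that turned upwards include Creb3l2, a membrane-bound transcription factor of the secretory pathway. Its means were 361 at 0 h and 295 at 12 h, and its libraries gave 329, 322 and 310.3 at 24 h and 505, 509.9 and 481 at 96 h (0.64; limma, adjusted p = 3.09e-08), above every earlier mean. Agt, the angiotensin precursor, fell by 0.24 at 12 h and rose by 0.60 late, from 220.5, 235 and 215 to 355, 337 and 327. Dusp14, a phosphatase (0.57), Capn9, a calpain protease (0.54), and Itgb5 (0.53) also passed their 0 h means. Early falls that went on include Fxyd3, Arsg, Sln, Prlr, Sstr5 and Plxnd1, described above, with 12 h changes between -0.86 and -0.48.

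**Figure D5:**
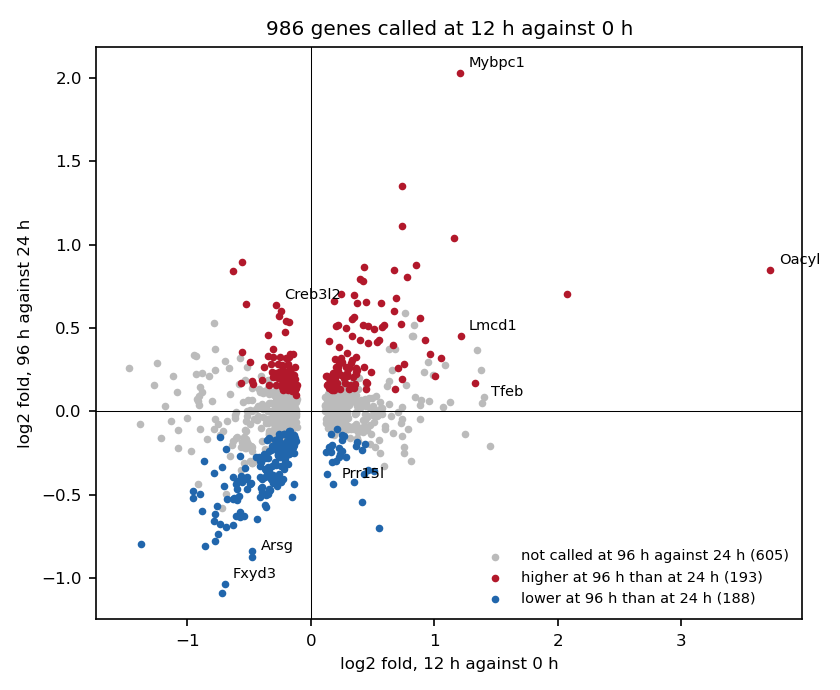
Log2 fold at 96 h against 24 h (vertical axis) by log2 fold at 12 h against 0 h (horizontal axis) for the 986 genes called at 12 h, coloured red where higher late (193), blue where lower late (188) and grey where not called (605). The red points spread over both sides, and the blue points lie mostly on the left, among early falls.

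Most late changes had not been called at 12 h against 0 h. Of the 936 genes that rose late, 743 (79.4%) had not been called at 12 h, 109 (11.6%) had been higher and 84 (8.97%) lower. Of the 993 that fell late, 805 (81.1%) had not been called, 159 had been lower and 29 higher. Thbs1, Kif21b, Lama4, Tapbp and Boc belong to the rises without a call at 12 h, and Cacna1h, Hspa12a, Igfbp5 and Lfng to such falls. Cacna1h, Igfbp5 and Lfng were already lower at 24 h than at 0 h. Their means at 0 h and 24 h were 84.0 and 51.5, 1323 and 1047, and 745 and 628. A gene not called at 12 h may have changed by less than the test could show.

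The cells with constitutive Pax7 give a comparison that shares no library with the time course. Pax7 stood at 0 and 0.01 FPKM (fragments per kilobase of gene body, scaled by library) in the Neo libraries and at 2.39 and 2.38 in the Pax7 libraries. In Pax7 against Neo, 18.6% of 13393 genes tested were higher and 18.2% lower (limma on log2 FPKM). Of the late rises, 879 could be tested there, and 500 were higher (56.9%) and 39 lower (4.44%). Of the late falls, 898 could be tested, and 444 were lower (49.4%) and 79 higher (8.80%). With library totals as the scaling, 2600 genes were higher and 1241 lower in place of 2485 and 2435, and the median of all genes moved from 0.01 to 0.07. The late rises then gave 501 higher and 16 lower, and the late falls 311 lower (34.6%) and 89 higher. Mybpc1 (log2 2.85), Lamb3 (3.00), Oacyl (3.12) and Pcsk2 (3.00) were higher in Pax7 cells, and Cacna1h (-0.97), Prlr (-1.20) and Sstr5 (-1.30) lower. Unfolded protein response genes had 16 of 21 higher and 1 lower (none lower with library totals), and cholesterol genes 16 of 24 higher and none lower.

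Some late changes did not run in the same direction in the constitutive cells. Histone genes had 8 of 48 higher and 8 lower (4 lower with library totals), shares near the 18.6% and 18.2% of all genes tested there. Their late fall was thus not seen in these cells, nor was a shared rise. Hist2h2be, which fell late, was higher in Pax7 cells by 0.44 (limma, adjusted p = 0.0082), and so were Tmprss4 (1.01) and Six6 (0.20). Among late rises, Irf7 (-0.54) and Trp53inp1 (-0.42) were lower in Pax7 cells. Interferon and antigen genes had 3 of 23 higher and 6 lower, beside the same 18.6% and 18.2% of all genes. Boc (-0.09; limma, adjusted p = 0.35) and B2m (0.06; limma, adjusted p = 0.4) were not called. In Pax7 cells, 32 of 34 mitosis genes and 74 of 79 ribosomal protein genes were lower, 21 and 59 with library totals, where the late step called 3 and 7. The values of the Neo and Pax7 cells cover whole gene bodies, so levels cannot be set beside those of the time course.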

How the data were processed

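Paired 50 bp reads came from a HiSeq 2000, after ribosomal depletion of total AtT-20 RNA, per the labels' protocols. The submitters' processing notes name TopHat, HOMER, edgeR and the GRCm38 and mm10 builds, without versions. The ER-Pax7 signal values deposited by the authors are HOMER reads over RefSeq exons scaled to a common total, with no strand option, per the file headers, so antisense and near-identical genes may share reads. For Neo and Pax7 the authors deposited FPKM, counted across gene bodies. The log2 folds and p-values (with FDR) deposited by the authors come from edgeR run through HOMER, per the file headers.

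From the step between low values, whole reads were recovered for 100% of low values (within 0.1 read) in every library, 61.4 M to 88.7 M a library, so that counting error is small for most genes. Groups were taken from the labels. Log2(value + 1) after TMM scaling (factors 0.993 to 1.01) was fitted with limma 3.58.1 (R 4.3.3), with a mean-variance trend, over all 12 ER-Pax7 libraries for genes with at least 1 scaled read in 3 libraries. Changes of low genes are understated on this scale. P-values were adjusted over all genes (Benjamini-Hochberg), with a threshold of 0.05. Pax7 against Neo used log2(FPKM + 0.1) for genes with 0.1 FPKM in 2 libraries. The smallest exact permutation p for 3 against 3 is 0.1, so no such test was used for single genes.

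Genes were named by rule: the 15 highest and 15 lowest called folds among genes with a mean of at least 50 scaled reads and no overlap, 8 early genes in each direction, 6 for each early and late combination, all melanotrope and corticotrope markers and up to 4 called members of every other list. This gave 177 genes, of which 1 is not reported here. The comparison, the rule and the 43 lists were chosen with earlier results of these data known. Alternatives were edgeR 4.0.16 on recovered reads (946 genes higher and 1001 lower), DESeq2 1.42.0, other scalings, pseudocounts and filters, fewer libraries, and the replicate number as a covariate. No label says what a number marks. Same-numbered libraries deviated together between 0 h and 12 h (correlations 0.333, 0.282 and 0.165). They also did between 0 h and 96 h (0.351, 0.131 and 0.324) and between 12 h and 96 h (0.297, 0.104 and 0.254). Between 24 h and 96 h they did not. That block for 12 h against 0 h was therefore added after the data were seen. The fits were tested on simulated data. Promoters came from the RefSeq table of GRCm38.p6. The comparisons of 24 h and of 96 h with 0 h share libraries with this one and were left out.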

Additional observations from a re-analysis of the deposited data

How the results depend on the processing

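Counts of genes higher at 96 h than at 24 h ranged from 603 to 834 when 1 library was left out, against 936, and counts of lower genes from 658 to 894, against 993; the lowest values, 603 and 612 higher and 658 lower, came without 96 h replicate 2, 96 h replicate 1 and 24 h replicate 2. Such fits have fewer samples. Both counts stayed within 1.5 times under every other alternative run: 946 and 1001 with edgeR, 1085 and 1172 with DESeq2, 784 and 1158 with library totals, and 763 and 823 without a filter on low values, which tests more genes. No named gene reversed under any alternative; without 96 h replicate 2, 26 of 177 lost their call, and with library totals 4 did.

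The median late change of genes higher at 12 h, 0.057 with all libraries, was 0.062519 for genes at an adjusted p under 0.01, 0.050874 for genes chosen by edgeR, 0.050987 with edgeR for both comparisons, 0.039944 with library totals, 0.061621 without 12 h replicate 2 and 0.046276 with the replicate block, added after the data were seen. For genes lower at 12 h, at -0.048, it was -0.068863 at an adjusted p under 0.01 and -0.060615 with library totals. The signs stayed and the cause of the shifts was not tested.

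With a replicate block, 1220 genes were higher and 1286 lower. The numbers did not pair the 24 h and 96 h libraries, whose same-numbered deviations correlated at -0.16, 0.145 and 0.0714 for replicates 1, 2 and 3. Under the block Pax7 (adjusted p = 0.0246, limma) and Megf11 (adjusted p = 0.00959, limma) passed the threshold, and 175 named genes stayed on the same side of it; 15 ribosomal protein genes and 1 granin gene were then lower, and 1 calcium or sodium channel gene higher. At 12 h against 0 h, where same-numbered libraries deviated together, the block left 982 of 986 calls in place and changed the call of 7 named genes; Pomc and Nr3c1 then fell at 12 h (adjusted p = 0.00777 and 0.014, limma), and 75.1% of late rises and 77.5% of late falls had no early call. Depth limits genes of a few scaled reads, such as Esm1 and Drd2, and no culture of 96 h without the compound was analysed.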
